A study of Homo sapiens with 6 samples.

Results

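The NOTCH pathway genes described here are 10: the ligands DLL1, DLL4, JAG1 and JAG2, the receptors NOTCH1, NOTCH3 and NOTCH4, and the targets HES1, HES4 and HES5. DNA methylation was followed over every region of the authors' deposited table that overlapped the RefSeq span of one of these genes or lay within 10 kb of it, which gave 56 of 35130 regions. Regions were taken by gene name and position, and the list of genes was drawn up with earlier results of these data known. The regions just inside the limit lay 9794 bases from DLL4 and 9993 bases from NOTCH1, and those just outside lay 10545 and 10827 bases from HES5. Of the 10 genes 9 had a region and NOTCH4 had none.

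The samples were M07e cells, a human acute megakaryoblastic leukaemia line grown with GM-CSF. One group carried a CRISPR knockout of DNMT3B, an enzyme that adds methyl groups to unmethylated CpG sites, and the other was the wild-type M07e control, with 3 libraries each. The comparison asks where methylation differs without DNMT3B, in a study of leukaemia with the CBFA2T3-GLIS2 fusion. The labels do not say whether the knockout was a single clone or whether libraries came from separate cultures. Methylation was read by reduced representation bisulfite sequencing, in which MspI fragments of CpG-rich DNA are converted with bisulfite so that unmethylated cytosines are read as thymine.

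The table holds 1 mean level per group and region, named M07e_3883 and M07e_WT. M07e_WT was taken as the control. No label uses the name M07e_3883. It was read as the knockout, the remaining group of the study, and every direction given depends on that reading. Read depth, values of single libraries and any replicate error are unknown, so no spread between libraries can be set beside a difference. A region was called where the authors' q was under 0.01 and the difference at least 25 percentage points. Differences are those the authors deposited, M07e_3883 minus M07e_WT. The authors' p-values, such as a Mann-Whitney p of 1.2e-06 at HES4, can be smaller than a rank test of 3 libraries against 3 allows, so they were not taken as a measure of variation among libraries.

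NOTCH signalling passes between touching cells. A Delta-like or Jagged ligand on one cell binds a NOTCH receptor on its neighbour, the receptor is cut by ADAM proteases and gamma-secretase, and the freed intracellular part joins RBPJ and a Mastermind protein on DNA to switch on genes such as HES1, HES4 and HES5, whose products repress transcription. In blood, NOTCH1 signalling directs progenitors toward the T-cell lineage.

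The HES promoters are shown because a called region lies on the promoter of HES5 and another lies just inside the start of HES4. RefSeq promoter windows (GRCh38.p14, 250 bases before to 50 after the gene start) were found for 9 of the 10 genes, DLL1 being the one named without a window. The HES5 window, chr1:2530214-2530513 on the minus strand, is shown 5′ to 3′ on the gene's strand, and the 21 bases of the called region are in capitals.
HES5 promoter: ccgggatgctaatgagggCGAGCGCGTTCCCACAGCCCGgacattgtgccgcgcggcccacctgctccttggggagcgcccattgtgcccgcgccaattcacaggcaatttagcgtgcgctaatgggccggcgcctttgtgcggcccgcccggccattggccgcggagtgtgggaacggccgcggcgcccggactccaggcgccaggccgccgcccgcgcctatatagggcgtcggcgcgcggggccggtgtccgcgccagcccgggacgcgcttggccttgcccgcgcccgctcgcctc
The called stretch runs from 232 to 212 bases before the gene start and holds 4 CpG dinucleotides, and the table lists 8 sites there, which is the cytosine of each strand. The whole window holds 45 CpG dinucleotides and 7 MspI sites (CCGG), against medians of 14 and 1 over all 35116 RefSeq promoter windows.

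The letters TGGGAA, the core of the motif bound by RBPJ, were searched on both strands of the windows. They occurred in 3 of the 9 windows, those of HES1, HES4 and HES5, and in 24.0% of all RefSeq promoter windows. HES1 had the motif at 84 and 70 bases before the gene start, HES4 at 76 and HES5 at 80. HES5 also had it on the opposite strand, read as TTCCCA, beginning 224 bases before the start and inside the called stretch. The stretches below are given on each gene's own strand with the motif in capitals, to show how alike the surroundings of the start-proximal copies are.
HES1 motif 1, chr3:194136052-194136081: tgaaagttactgTGGGAAagaaagtttggg
HES1 motif 2, chr3:194136066-194136095: ggaaagaaagttTGGGAAgtttcacacgag
HES4 motif, chr1:1000156-1000185: ctggggcgagtgTGGGAAagaatgcggagc
HES5 motif, chr1:2530326-2530355: ggccgcggagtgTGGGAAcggccgcggcgc
HES5 called stretch, chr1:2530475-2530495: cgagcgcgTTCCCAcagcccg
A match of letters is a description and not a measured binding site. In the authors' deposited table no region covered the start-proximal motif copies, so their methylation was not read here. The HES5 copy lay 131 bases downstream of the called stretch.

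Over the 56 regions of the NOTCH genes, the authors' deposited table gave 10 calls, 7 higher and 3 lower in M07e_3883. The calls fell on 6 genes, with 2 at DLL1, 1 at DLL4, 1 at JAG1, 3 at JAG2, 1 at HES4 and 2 at HES5. The share called was 17.9%, against 6.74% over all regions, with 4.57% of all regions called higher and 2.17% called lower. Among all regions within 10 kb of a protein-coding gene 7.15% were called. The median difference over the NOTCH regions was 28.0 points, against 17.4 points over all regions, and it was 22.1 points without the 21 regions of NOTCH1. By role, 7 of 21 ligand regions were called, 3 of 8 HES regions and 0 of 27 receptor regions. These shares are descriptions of 1 table and no test between the roles was made.

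**Figure D1:**
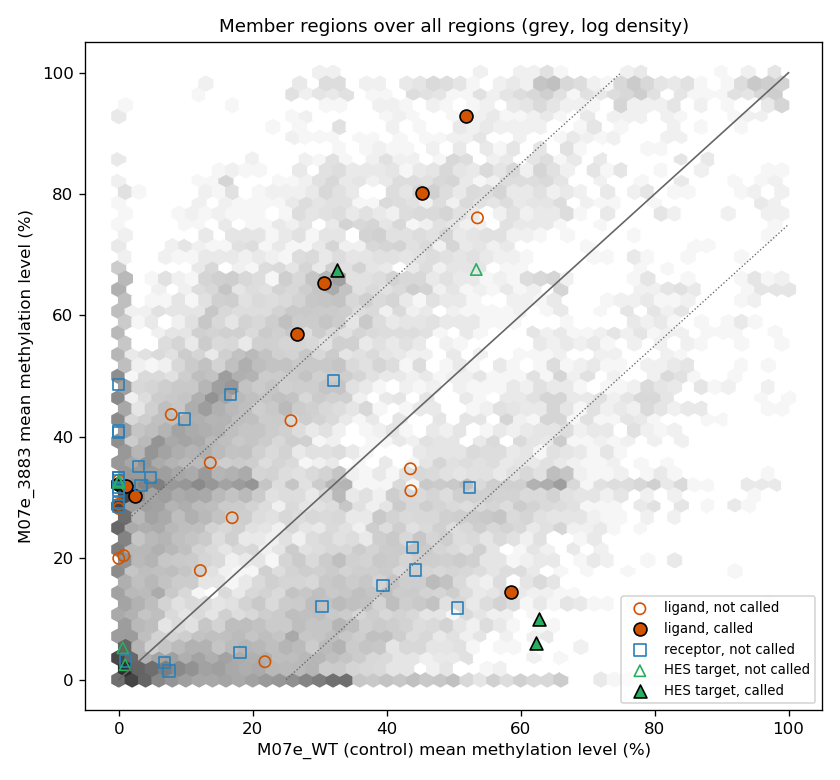
Mean methylation level (%) of each region in M07e_3883 (vertical) against M07e_WT (horizontal), with the 56 NOTCH regions over the density of all 35130 regions (grey, log scale). Filled symbols are the 10 called regions, the solid line marks equal levels and the dotted lines mark differences of 25 points; 7 filled symbols lie above the upper dotted line and 3 below the lower one.

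Among the ligands, all but 1 of the 7 called regions were higher in M07e_3883. DLL4 encodes a Delta-like ligand best known from endothelial cells and from the thymus. In the authors' deposited table its called region, 13 sites at chr15:40929601-40929690 inside the gene and 261 bases past its start, had a mean of 92.9% in M07e_3883 and 51.9% in M07e_WT (difference 41.0 points, q = 0.00376). This was the highest M07e_3883 level of any NOTCH region. The other 3 regions of DLL4 lay outside the gene and none was called. The one 3278 bases before the start stood at 2.94% in M07e_3883 and 21.8% in M07e_WT (q = 0.446).

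JAG1 encodes a Jagged ligand found in many tissues and mutated in Alagille syndrome. Its called region had 5 sites at chr20:10673711-10673760, 239 bases inside the gene from its start. The authors' deposited means were 30.2% in M07e_3883 and 2.46% in M07e_WT (difference 27.8 points, q = 5.76e-05). The only other JAG1 region, 814 bases before the start, was not called, with 31.1% in M07e_3883 and 43.6% in M07e_WT (q = 1). The M07e_3883 levels on the 2 sides of the start were therefore nearly equal, and the M07e_WT levels were far apart.

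JAG2, the second Jagged ligand, had 3 calls among 8 regions and was the one gene with calls in both directions. A region of 6 sites at chr14:105168237-105168242, 534 bases inside the gene from its start, had authors' means of 65.4% in M07e_3883 and 30.6% in M07e_WT (difference 34.8 points, q = 0.0045). A region of 30 sites deep in the gene, at chr14:105142921-105143272 and 25504 bases past the start, stood at 31.9% in M07e_3883 and 1.11% in M07e_WT in the authors' deposited table (difference 30.8 points, q = 0.00828). A region of 11 sites beyond the gene, at chr14:105137009-105137052 and 3943 bases past its end, went the other way, with 14.5% in M07e_3883 and 58.5% in M07e_WT (difference -44.1 points, authors' q = 0.00313). The 5 regions of JAG2 that were not called were all higher in M07e_3883 in the table, by 5.78 to 28.9 points.

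DLL1, a Delta-like ligand that acts in somite formation and in the development of marginal zone B cells, had 2 calls among 7 regions, both higher and both outside the gene. They lay 775 and 5517 bases beyond the higher coordinate of the gene's span, 170291078, and which end of the gene that is was not determined, since the strand of DLL1 was not in the tables used. Both were within the span of the neighbouring gene FAM120B. The nearer one had 7 sites at chr6:170291853-170291881 with authors' means of 57.0% in M07e_3883 and 26.6% in M07e_WT (difference 30.4 points, q = 0.00918). The farther one had 22 sites at chr6:170296595-170296655, with 80.2% in M07e_3883 and 45.3% in M07e_WT (difference 34.9 points, authors' q = 0.00322). One more region, 5 sites inside DLL1 at chr6:170290590-170290608, passed on the authors' q (0.00154) but not on size, with 20.4% in M07e_3883 and 0.75% in M07e_WT (difference 19.7 points).

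**Figure D2:**
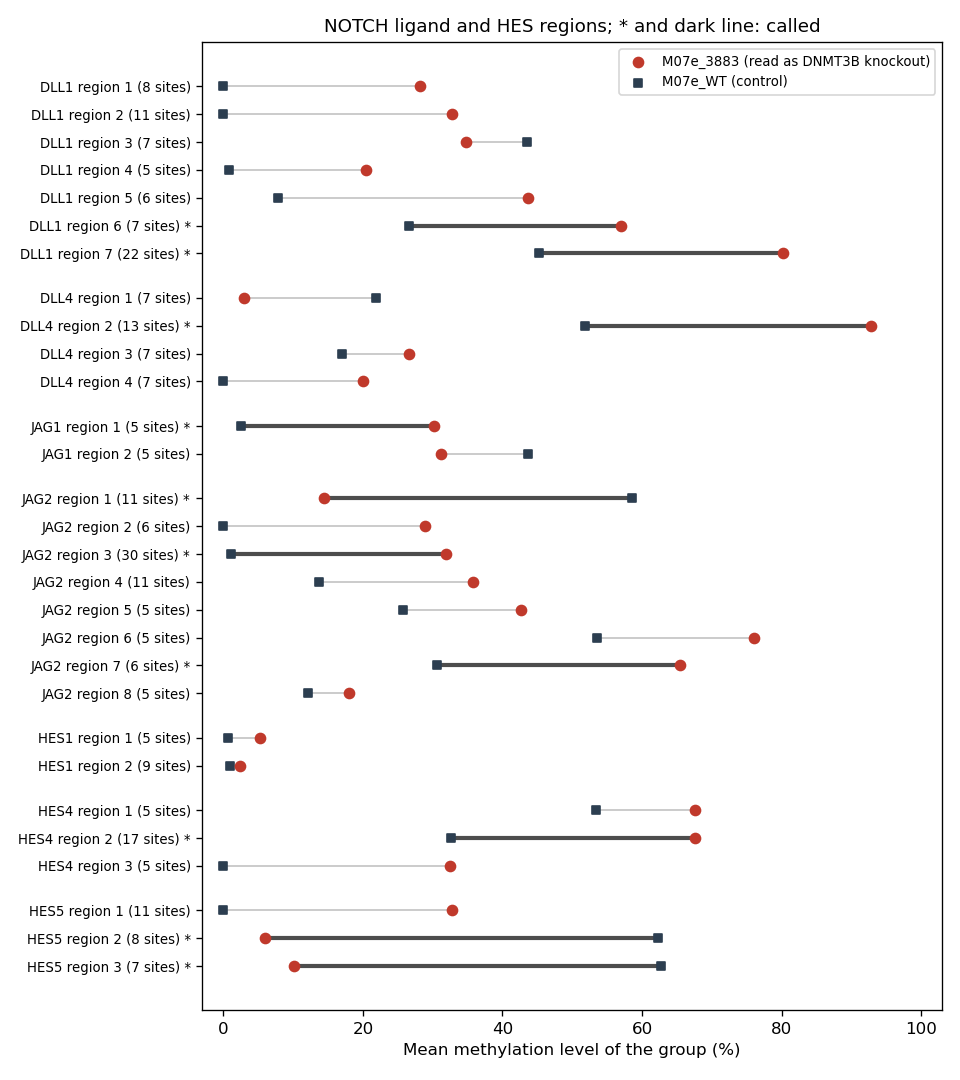
Mean methylation level (%) of each ligand and HES region in M07e_3883 (red circles) and M07e_WT (dark squares), numbered by position along the chromosome, with the number of sites in brackets. Asterisks and dark lines mark the 10 called regions; the red circle lies right of the square in 7 of them and left of it in 1 JAG2 region and both HES5 regions.

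The HES genes encode basic helix-loop-helix repressors that respond to NOTCH, and here they differed from one another. HES5 was lower in M07e_3883 on its promoter and upstream of it, HES4 was higher just inside its start, and HES1 was low in both groups. At HES5, the promoter stretch shown in capitals above (8 sites) had authors' means of 5.95% in M07e_3883 and 62.2% in M07e_WT (difference -56.3 points, q = 0.000319). A second region of 7 sites at chr1:2532715-2532919, 2452 bases before the start, had nearly the same pair of levels in the authors' deposited table, 10.1% in M07e_3883 and 62.8% in M07e_WT (difference -52.7 points, q = 0.00295). These were the 2 most negative differences among the NOTCH regions. The third HES5 region, 4884 bases past the gene end and within PANK4, was not called at 32.7% in M07e_3883 and 0% in M07e_WT (q = 1).

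HES4, a HES gene that has been lost in the mouse, had its call over 17 sites at chr1:1000008-1000045, 52 bases inside the gene from its start. The authors' deposited means were 67.5% in M07e_3883 and 32.6% in M07e_WT (difference 35.0 points, q = 5.62e-06), the lowest q of any NOTCH region. A HES4 region past the gene end stood at 67.6% in M07e_3883 and 53.4% in M07e_WT and was not called (q = 1). HES1, a NOTCH target in many tissues, had 2 regions. The authors' means were 5.24% in M07e_3883 and 0.602% in M07e_WT at 1498 bases before the start (q = 0.0744), and 2.45% in M07e_3883 and 0.943% in M07e_WT at 2540 bases past the end (q = 0.287). HES1 had the lowest median level of the 9 genes in both groups, and its promoter window held no region.

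Near the gene starts, NOTCH regions differed in both directions. A total of 9 regions of the authors' deposited table lay within 1000 bases of the start of a member with a known strand, and 5 of them had higher and 4 lower means in M07e_3883, with a median difference of 2.02 points. Of the 9, 5 were called, 4 higher and 1 lower. Over all regions within 1000 bases of a RefSeq start 8.67% were called, and the median difference was 2.09 points, close to that of the 9 regions. The 4 higher ones, at DLL4, JAG1, JAG2 and HES4, all lay inside the gene, 52 to 534 bases past the start. The 1 lower one lay before the start of HES5. Position inside the gene did not fix the direction, since both NOTCH3 regions there, 76 and 780 bases past the start, had differences of -26.2 and -22.1 points and were not called. The 9 regions had a median of 27.8 sites per 100 bases, both strands counted, against 8.45 over the other 40 regions of these genes. Of those 40, 3 were called.

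**Figure D3:**
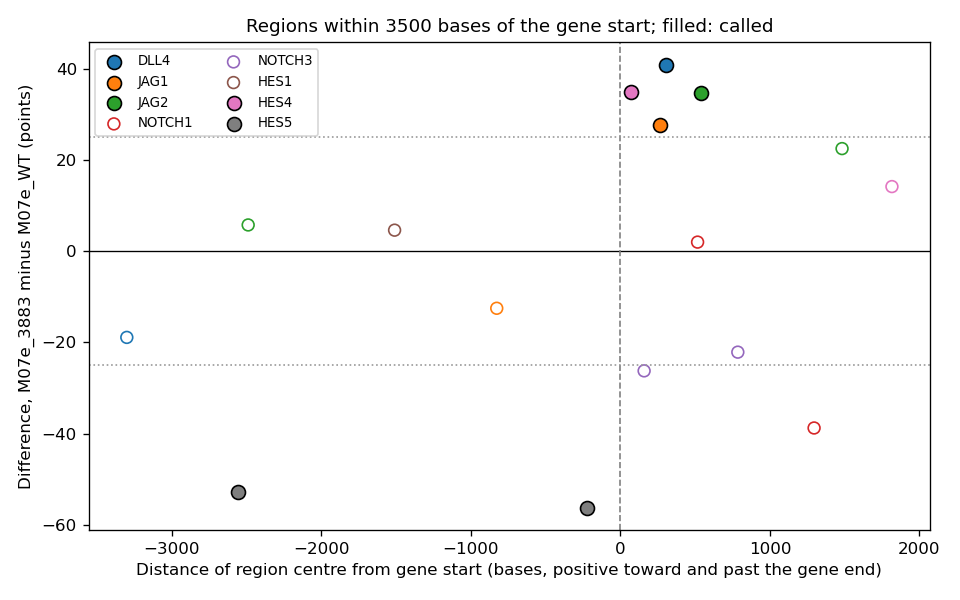
Difference in mean methylation (M07e_3883 minus M07e_WT, percentage points) of NOTCH regions whose centre lies within 3500 bases of the gene start, against the distance of that centre from the start in bases. Filled symbols are called and the dotted lines mark 25 points in either direction; DLL4, JAG1, JAG2 and HES4 are filled above 25 points just past the start, and both HES5 symbols before it are filled below the lower dotted line.

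The receptors held nearly as many regions as the ligands and HES genes together, and none was called in the authors' deposited table, where 6.74% of all regions were. NOTCH1 had 21 regions and NOTCH3 had 6. In 11 of the 27 (40.7%) the M07e_WT mean was 0, against 26.1% of all regions, and none of the 9175 such regions of the whole table was called. At an unadjusted p under 0.05, 4 of the 27 (14.8%) passed on the authors' Kolmogorov-Smirnov p and 14 (51.9%) on their Mann-Whitney p, against 22.3% and 43.6% of all regions in the same order. None of the 11 with an M07e_WT mean of 0 passed on the Kolmogorov-Smirnov p, so the shares called and passing were not compared over like regions. The lowest q, 0.0118, was at 13 sites of NOTCH1 at chr9:136544655-136544850, 1198 bases past the start, where the authors' means were 11.8% in M07e_3883 and 50.5% in M07e_WT (difference -38.8 points). It would be called at q under 0.05, where 10.5% of all regions are.

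NOTCH1 encodes the receptor that is mutated to an active form in many T-cell leukaemias, and its regions are given here by position. From 2000 bases inside the gene outward past the start, 4 of 5 regions had lower means in M07e_3883, with differences of -38.8 to -18.3 points, and the fifth was near 0 in both groups (3.04% in M07e_3883 and 1.02% in M07e_WT). Of the 13 regions deeper in the gene, 11 were higher in M07e_3883, with a median of 33.3% in M07e_3883 and 0% in M07e_WT over all 13. The 2 lower ones, about 12 kb past the start, were low in both groups, at 1.40% and 2.77% in M07e_3883 and 7.50% and 6.86% in M07e_WT. The boundary of 2000 bases was set after the values were seen.

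Inside NOTCH1 the M07e_WT mean was exactly 0 in 8 of those 13 regions, and the M07e_3883 mean lay between 25% and 33.3% in 5 of the 8. Over the 56 NOTCH regions, 17 (30.4%) had an M07e_WT mean of exactly 0, against 26.1% of all regions. In none of the 17 was the M07e_3883 mean 0, all 17 had an authors' q of 1 and none was called. The same holds for nearly all such regions of the table, of which 9166 of 9175 had a q of 1 and 0 were called. In some of these regions the authors' 2 p-values were far apart. A region of 26 sites in NOTCH1 at chr9:136499284-136499661 had 40.7% in M07e_3883 and 0% in M07e_WT, with a Mann-Whitney p of 6.48e-07, a Kolmogorov-Smirnov p of 1 and a q of 1 in the authors' deposited table. The table does not say how sites without reads in a library were entered, and its part in these values was not tested. Without the 13 NOTCH regions at 0 in one group and 25% to about 33.3% in the other, the median difference was 17.0 points. Such regions made up 23.2% of the NOTCH regions and 23.2% of all regions. No median over all regions without them is given here, so the 17.0 points have no matching background.

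NOTCH3, the receptor of vascular smooth muscle that is mutated in the small vessel disease CADASIL, had 6 regions, 3 with higher and 3 with lower means in M07e_3883, none of them called. The 2 regions nearest its start, 76 and 780 bases inside the gene, had authors' means of 18.1% and 21.8% in M07e_3883 and 44.3% and 43.9% in M07e_WT (q = 0.113 and 0.205). Of the 4 deeper regions, 3 were higher in M07e_3883 by 28.6 to 33.3 points, 2 of them with an M07e_WT mean of 0, and 1 was lower (4.44% in M07e_3883 and 18.1% in M07e_WT). No q of NOTCH3 was under 0.113.

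**Figure D4:**
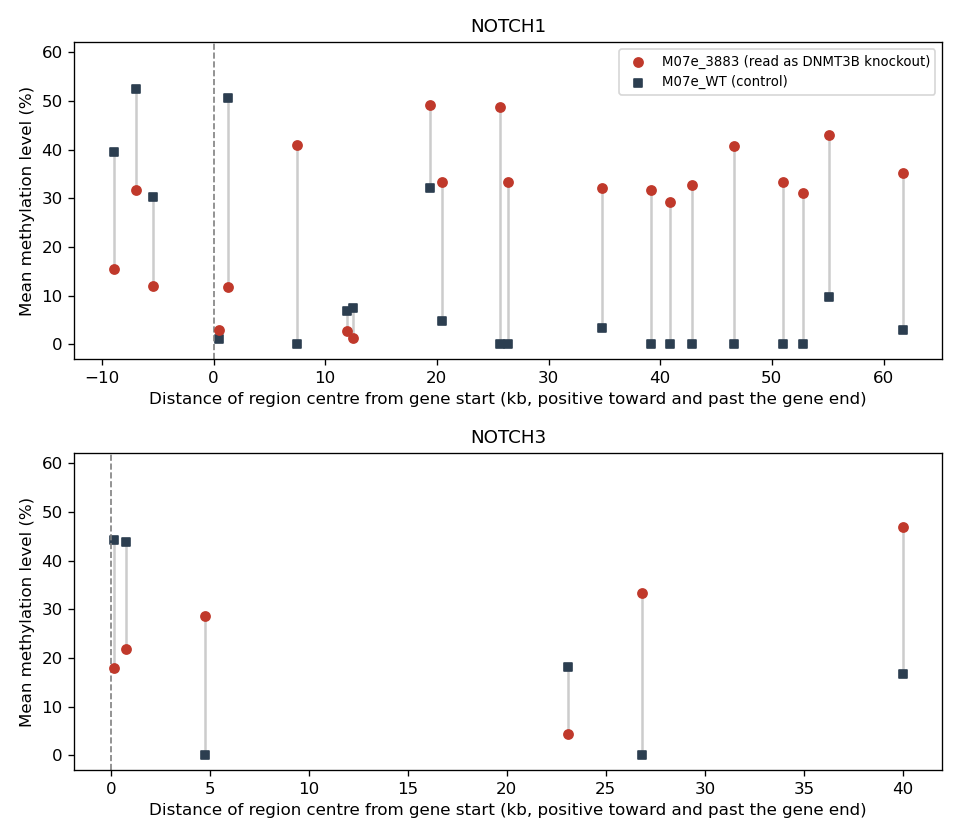
Mean methylation level (%) of each NOTCH1 (top) and NOTCH3 (bottom) region in M07e_3883 (red circles) and M07e_WT (dark squares), against the distance of the region's centre from the gene start in kb, with the dashed line at the start. None of the 27 regions was called; M07e_3883 is lower in all but 1 region next to and before the start, and higher in most regions deeper in the gene, where M07e_WT is often at 0.

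The 10 calls rest on the authors' q. When their Kolmogorov-Smirnov p was instead adjusted by the Benjamini-Hochberg method over all 35130 regions, 4.12% of all regions and 3 of the NOTCH regions were called. These were HES4, JAG1 and the HES5 promoter stretch, with a Benjamini-Hochberg q of 0.000169, 0.000892 and 0.00301 in that order. The other 7, at DLL1, DLL4, JAG2 and the upstream HES5 region, had a Benjamini-Hochberg q between 0.0145 and 0.0303. With the Mann-Whitney p adjusted in the same way, 8.7% of all regions and 12 NOTCH regions were called, among them 3 of NOTCH1 with an M07e_WT mean of 0. The JAG2 region 534 bases inside the gene (Mann-Whitney p of 0.00487 before adjustment) was not among the 12. It was thus called on the authors' q and with neither adjusted p. With the authors' q and a difference of at least 40 points, 4 NOTCH regions were called and 3.42% of all regions, and at 10 points 11 and 8.6%. Among regions of 10 or more sites, 5 of 17 NOTCH regions and 16% of all were called. Leaving out regions at 0 in one group and 25% to about 33.3% in the other gave 10 of 43 NOTCH regions and 8.78% of the rest of the table. The called JAG2 region of 30 sites was kept by this rule, since its M07e_WT mean was 1.11%, although its levels resemble those left out.

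Another 60 pathway genes, listed by their known roles, were read for comparison in the authors' deposited table. Of these 51 had a region, 215 distinct regions in all, and 11 regions on 11 genes were called (5.12%), 7 higher and 4 lower, with a median difference of 19.6 points. Ligands outside the main list included DLL3, a Delta-like protein that acts as an inhibitor (72.9% in M07e_3883 and 35.1% in M07e_WT over 5 sites, 6779 bases from the gene, q = 0.00637), and DNER, a neuronal NOTCH-binding protein (16.2% in M07e_3883 and 80.4% in M07e_WT over 8 sites, q = 0.000329), which had the largest difference of the list at -64.2 points. A DLL3 region of 10 sites inside the gene went the other way and failed only on size. It had 5.16% in M07e_3883 and 18.7% in M07e_WT (difference -13.6 points, authors' q = 0.00306).

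Among the ubiquitin ligases of the Neuralized type, which help ligands to be taken up into the sending cell, NEURL1 was lower 87 bases before its start (30.9% in M07e_3883 and 75.4% in M07e_WT, authors' q = 0.000315). NEURL1B was higher 373 bases inside the gene over 34 sites (34.7% in M07e_3883 and 4.59% in M07e_WT, authors' q = 0.00124).

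Further HES and HEY repressors had 4 calls among 25 regions of the authors' deposited table. The HES3 region, 3551 bases past the gene end, was at 58.7% in M07e_3883 and 19.7% in M07e_WT. The HES7 region, inside the gene, was at 50.5% in M07e_3883 and 21.9% in M07e_WT. A HES7 region directly beside it, at chr17:8124140-8124169, went the other way and was not called. It had 13.3% in M07e_3883 and 30.8% in M07e_WT (authors' q = 0.0271). HEYL was at 32.1% in M07e_3883 and 3.22% in M07e_WT, 231 bases before its start. The HES2 region, 4842 bases before its start, was lower, at 14.2% in M07e_3883 and 41.8% in M07e_WT. The remaining calls of the authors' table were the corepressor genes CTBP2 (78.4% in M07e_3883 and 52.0% in M07e_WT) and TLE3 (80.1% in M07e_3883 and 53.6% in M07e_WT), both higher, and DTX3, a Deltex family gene (29.5% in M07e_3883 and 75.0% in M07e_WT, 9621 bases from the gene). None of 24 regions at genes of the nuclear complex that includes RBPJ and the Mastermind proteins, of 12 at genes of receptor cleavage, or of 22 at glycosylation genes such as LFNG was called by the authors' q and the size rule. Over all regions 6.74% were called, and no test against that share was made. The M07e_WT mean was 0 in 12, 2 and 9 of these regions in the same order, a kind of region never called in the whole table.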

How the data were processed

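Reduced representation bisulfite libraries of DNMT3B knockout and control M07e cells (3 each) were represented by 1 table of regions on hg38. Bismark, HISAT2, methylKit, Trimmomatic and FastQC are listed in the submitters' processing notes without versions or roles, and no source used here names the program that made the regions. Per the file headers, the authors deposited for each region the mean methylation level of each group in percent, their difference as a signed score in percentage points, the number of sites, 2 p-values (Mann-Whitney and 2-dimensional Kolmogorov-Smirnov) and a q-value.

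Positions were checked against the RefSeq promoter sequences: with 2 added to each start and 1 to each end, all 3109 starts and 3066 ends that fell in a window lay on a cytosine of a CpG, on one strand or the other, and 1 base less left 1524 and 1259 on neither. Printed positions carry these additions and are 1-based. In 2551 regions inside a window the number of sites never passed 2 per CpG, and in 1930 it passed 1.

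Regions were assigned with Python 3.11.15 and pandas 2.3.3 to RefSeq genes (GRCh38.p14), and Benjamini-Hochberg adjustment used scipy 1.17.1. The code for calling and assignment was checked on simulated data with known changes, which does not measure how reliable the calls on these data are. Strand and start came from the promoter table. Every called member region is named, and for a member with none the region of lowest q. Of 61 other pathway symbols 60 were found. The members, lists and tests were chosen with earlier results of these data known. No new test was made, since each group has 1 mean.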

Additional observations from a re-analysis of the deposited data

How the results depend on the processing

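All levels come from 1 mean per group, so depth, library spread and leaving out a replicate could not be examined, and calls rest on the authors' q. No paired analysis was possible because the table holds no values per library. At a difference of at least 40 points, 4 regions on 3 genes were called, 1 higher. With the adjusted Kolmogorov-Smirnov p, 3 regions on 3 genes were called, 2 higher and 1 lower. Within the gene spans alone there were 5 calls among 32 regions and 0 lower, since the lower calls all lay in flanks. A flank of 2 kb gave 7 calls among 40 regions, 1 of them lower. A flank of 50 kb gave 16 calls among 127 regions, 12 higher, and a median difference of 20.0 points. The main flank of 10 kb gave 10 calls among 56 regions, and the same rule called 6.74% of all regions. With at least 10 sites, 5 of 17 regions were called, 4 higher and 1 lower, with a median of 32.2 points. Without regions at 0 in one group and 25% to about 33.3% in the other the median was 17.0 points, and without NOTCH1, chosen after seeing the data, 22.1 points. The 17.0 points have no median over all regions under the same rule beside them. At q under 0.05 and at 10 points the counts stayed within 1.5 times. The direction of a call could not change, since every setting used the same deposited differences.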

Other observations

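Several of the NOTCH genes lie near the ends of chromosomes. The lower coordinate of the span is 998964 for HES4 and 2528745 for HES5, both on chromosome 1, and the spans of DLL1, JAG2 and NOTCH1 end 454901, 1711068 and 1785761 bases before the end of the last RefSeq gene of their chromosomes. These 5 genes hold 8 of the 10 calls, but they also hold 42 of the 56 regions. NOTCH1, with 21 of those regions, has 0 calls. The share called was 17.9% over the 56 regions and 6.74% over all regions, wherever they lay. Whether regions near chromosome ends were called more often than others was not tested.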
